A study of Mus musculus with 2 samples.

Results

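Transcripts of neutrophil and monocyte granules were examined in macrophages sorted from the red pulp of mouse spleens. The group holds 10 genes fixed by name, S100a8, S100a9, Ngp, Camp, Ltf, Elane, Mpo, Prtn3, Ly6c2 and Retnlg. In all, 20638 genes had a probe with a usable spot on both arrays. A probe belonged to a gene when its accession was one of that gene's RefSeq transcripts. By this rule 9 of the 10 genes had a probe and Ly6c2, which encodes a surface protein of inflammatory monocytes, had none, so its level is not reported here. Camp had 2 probes and each of the other 8 genes had 1, giving 10 probes, each read from 1 spot per array.

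The cells came from SIRPα-KO mice, which by their label lack the inhibitory myeloid receptor SIRPα, and from WT mice. Per the labels, spleens were digested, red blood cells were lysed, and F4/80-positive, CD11b-low cells were sorted. Each genotype was represented by the combined cells of 5 mice, pooled before RNA isolation, α- and β-globin transcripts were removed, and the Cy3-labelled cRNA went onto 1 array per genotype. The sources used here give no age, sex, strain background or deleted part of the gene. With 1 pool per genotype there is no replicate, no test across samples and no p-value, and precision is limited by there being only 2 arrays. In such pools, fewer cells of a type and less RNA per cell cannot be told apart.

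Neutrophils store antimicrobial proteins in granules that are filled in a fixed order while the cell matures in the bone marrow. Primary (azurophil) granules, made at the promyelocyte stage, carry the serine proteases neutrophil elastase and proteinase 3 and the enzyme myeloperoxidase. Secondary (specific) granules, made later, carry lactoferrin, the cathelicidin precursor and neutrophilic granule protein, while S100A8 and S100A9 form calprotectin, the most abundant cytosolic protein of the mature cell and also a product of monocytes. In a sort of spleen macrophages these transcripts are read as markers of other myeloid cells.

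A value below is the processed signal, the linear spot brightness after the scanner software's background subtraction and detrending. "Well above background" is the software's own flag, carried by 65.4% of probes on the SIRPα-KO-labelled array and 71.5% on the WT array. The lowest signal that carried it was 8.53 on the SIRPα-KO-labelled array and 7.92 on the WT array, and 153 negative control spots reached at most 7.03 and 4.25 there. Differences are log2 values scaled to the 75th percentile of each array, SIRPα-KO-labelled array minus WT array, with an error after ± that combines the software's signal errors and covers spot measurement only. A signal is followed by its own such error. In place of a test, genes at least 2-fold apart were called higher or lower. The brightness rank of a probe describes that probe alone, because probes differ in affinity and their signals do not order genes by transcript level.

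Sirpa, the targeted gene, had a signal of 1006 ± 101 on the SIRPα-KO-labelled array and 795 ± 79.5 on the WT array, a difference of 0.51 ± 0.20. The label is thus not borne out by this probe, whose place relative to the deletion is not known here, and a probe beyond the deletion would say nothing on it. Every direction below rests on the labels alone.

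S100a8, whose product is cytosolic, was the 1 gene of the group called different between the arrays, and it was lower on the SIRPα-KO-labelled array. Elane, Prtn3, Camp and Ltf, the measured genes of granule proteins, were not called. Of the 9 genes with a probe, 5 were well above background on the SIRPα-KO-labelled array and 7 on the WT array. The 7 genes above background on at least 1 array were S100a8, S100a9, Camp, Ltf, Elane, Prtn3 and Retnlg. Of these, 1 was called lower on the SIRPα-KO-labelled array (S100a8) and 0 were called higher. Over all 15829 measured genes, 5.52% were called lower and 3.13% higher, so a single lower gene among 7 is no result about the group. At 1.5-fold S100a8 remained the 1 gene called, where 13.5% of all genes were lower and 11.4% higher. At 3-fold 0 of the 7 were called, where 2.38% were lower and 0.663% higher. The median difference over the 7 genes was -0.16 on the log2 scale, against -0.09 over all measured genes. That -0.16 is the value of S100a9, a bound set by the lowest signal well above background, and Retnlg also entered as a bound. Over the 5 genes well above background on both arrays the median was -0.23, against -0.08 over all such genes.

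**Figure D1:**
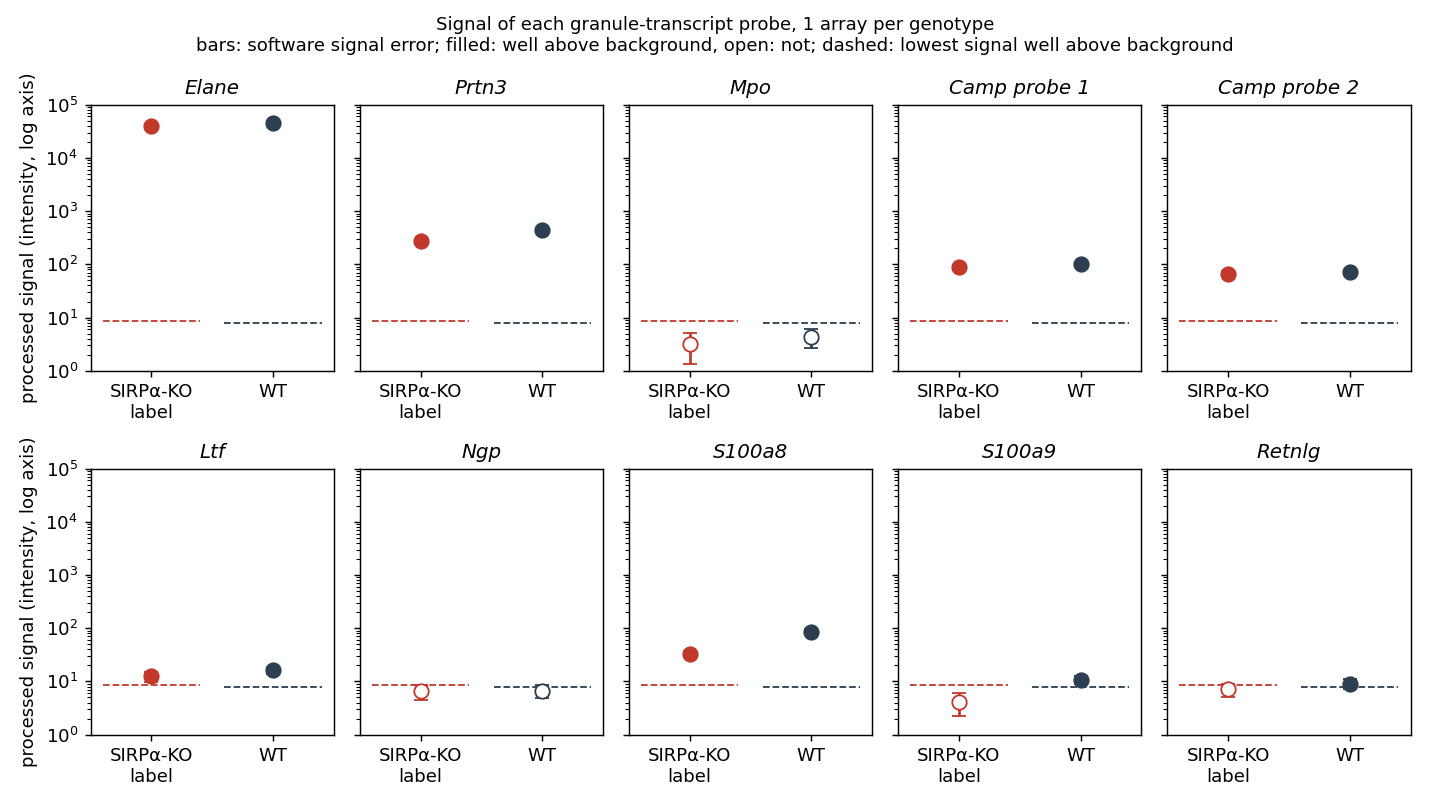
Processed signal (intensity, log axis) of each of the 10 probes on the SIRPα-KO-labelled array (red, left) and the WT array (dark, right). Bars are the software's signal error, filled points are well above background, open points are not, and dashed lines mark the lowest signal well above background on each array. Elane lies near the top of the scale on both arrays, Mpo and Ngp are open on both, and S100a9 and Retnlg are open only on the SIRPα-KO-labelled array.

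Elane and Prtn3, of the primary granules, were well above background on both arrays, and Mpo was on neither. Elane, which encodes neutrophil elastase, had a signal of 39299 ± 3930 on the SIRPα-KO-labelled array and 45722 ± 4572 on the WT array. Its probe ranked 120th of 39403 probes and 100th of 39401 there, counted from the brightest. The difference was -0.05 ± 0.20, smaller than its spot error, and it was 0.21 after cyclic loess normalization, so no direction is given.

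Prtn3 encodes proteinase 3, the serine protease most closely related to elastase in these granules. It had a signal of 276 ± 27.7 on the SIRPα-KO-labelled array and 434 ± 43.4 on the WT array, at percentiles 86.5 and 88.1 of the probes. The difference was -0.48 ± 0.20, larger than the spot error but short of the 2-fold rule. Measured genes in the brightest of 5 brightness groups, which holds Prtn3, had a median difference of -0.28. A lower value is thus not particular to Prtn3. Mpo, which encodes the peroxidase that makes hypochlorous acid, had 3.19 ± 1.86 and 4.35 ± 1.67 and was not well above background on either array. No difference is given for it.

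The brightness of the Elane probe has no second Elane probe as a check. Across the arrays, 187 named genes had their brightest probe in the top 1% on both, and 101 of these had a further probe. In 83 of the 101 the further probe exceeded background on 1 array or both. It was also in the top 1% on both arrays in 4 genes, and was below the median probe on both in 38. Its median percentile was 61.1 on the SIRPα-KO-labelled array and 59.8 on the WT array. The further probe is the dimmer one by the way it was picked, and genes of other brightness were not compared. These counts therefore cannot show whether a bright probe reads its gene. Probes of genes that macrophages are known to express ran from bright to background, and those given here were picked after their values were seen. Csf1r had 6697 on the SIRPα-KO-labelled array and 6601 on the WT array at its brightest probe. Its further probes had 739 and 21.4 on the SIRPα-KO-labelled array and 827 and 19.3 on the WT array. The complement genes C1qc and C1qb had 334 and 154 on the SIRPα-KO-labelled array and 174 and 219 on the WT array. Others were near or at background. Spi1, the gene of PU.1, had 11.3 on the SIRPα-KO-labelled array and 19.1 on the WT array, and the complement gene C1qa had 7.92, not well above background, and 15.95. Ctsc, the activator of granule proteases, was not well above background on either array. Whether each probe reads the gene it is named for was not tested, so the values of Elane, and those of Lpo and S100a5 below, are those of the probes that carry these names.

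In the mouse genome Prtn3 and Elane are neighbouring protein-coding genes, with Cfd next to Elane. Cfd, which encodes complement factor D, was not well above background on either array, with signals of 2.37 on the SIRPα-KO-labelled array and 3.67 on the WT array. The neighbours were looked up after the values were seen.

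The 250 bases before the annotated start of the 3 primary granule genes are shown because these genes are switched on at the same stage of neutrophil development and Mpo alone was at background here. They are RefSeq sequences of build GRCm38.p6, written 5′ to 3′ on the gene's strand, and capitals mark matches to 4 motifs searched on both strands.
Elane, chr10:79886062-79886311, plus strand: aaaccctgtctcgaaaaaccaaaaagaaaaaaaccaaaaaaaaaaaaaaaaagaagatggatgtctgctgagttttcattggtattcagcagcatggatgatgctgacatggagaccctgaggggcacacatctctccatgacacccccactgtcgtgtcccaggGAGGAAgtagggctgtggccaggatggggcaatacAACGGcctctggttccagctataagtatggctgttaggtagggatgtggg
Prtn3, chr10:79879417-79879666, plus strand: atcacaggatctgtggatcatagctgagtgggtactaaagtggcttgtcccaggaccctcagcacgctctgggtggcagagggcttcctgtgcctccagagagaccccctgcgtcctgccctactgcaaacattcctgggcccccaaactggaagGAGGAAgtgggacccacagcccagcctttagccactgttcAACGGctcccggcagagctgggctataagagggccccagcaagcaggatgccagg
Mpo, chr11:87793534-87793783, plus strand: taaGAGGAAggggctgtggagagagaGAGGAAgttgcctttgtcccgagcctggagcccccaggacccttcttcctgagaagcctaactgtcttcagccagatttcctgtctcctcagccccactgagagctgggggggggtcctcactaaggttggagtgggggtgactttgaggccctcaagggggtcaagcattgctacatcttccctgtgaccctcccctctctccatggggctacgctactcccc

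The motifs were GAGGAA for the myeloid factor PU.1, TTGCNNAA for C/EBP factors, AACGG for MYB and TATAAA for the TATA box. Elane held GAGGAA at -85 and AACGG at -50 relative to the start, and Prtn3 held GAGGAA at -95 and AACGG at -55, so both motifs lay on the gene's strand in the same order. Mpo held GAGGAA at -247 and -224 and no match to the other 3 motifs. Over 32851 RefSeq promoters of the same length, 23.3% held GAGGAA, 9.56% TTGCNNAA, 14.5% AACGG and 12.4% TATAAA. Among the 10 genes, 6 held GAGGAA, 4 TTGCNNAA, 2 AACGG and 1 TATAAA, with no overlapping matches in any of the 11 promoters. Matches are a description of these letters and not of binding.

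No secondary granule gene of the group was called. Camp encodes the precursor of the antimicrobial peptide CRAMP. Its brighter probe had a signal of 87.4 ± 9.03 on the SIRPα-KO-labelled array and 101 ± 10.3 on the WT array, and its further probe had 66.7 ± 7.05 and 70.8 ± 7.35. The differences were -0.04 ± 0.21 and 0.08 ± 0.21, so both probes differed by less than their spot error, with opposite signs.

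Ltf encodes lactoferrin, which binds iron. It had a signal of 12.4 ± 2.52 on the SIRPα-KO-labelled array and 16.4 ± 2.50 on the WT array, a difference of -0.23 ± 0.37. Ngp, which encodes neutrophilic granule protein, a relative of the cathelicidins, had 6.54 ± 2.06 and 6.66 ± 1.83 and was not well above background on either array. The 3 genes lie on chromosome 9, and none differed between the arrays by more than its spot error.

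Of the calprotectin genes, S100a8 was called lower and S100a9 was not. S100a8 had a signal of 32.7 ± 3.81 on the SIRPα-KO-labelled array and 86.2 ± 8.79 on the WT array, which put its probe at percentiles 57.7 and 72.2. The difference was -1.23 ± 0.22, or 2.35-fold lower. S100a9, the partner of S100a8 in the calprotectin complex, had 4.10 ± 1.85 on the SIRPα-KO-labelled array, not well above background, and 10.8 ± 1.91 on the WT array. It was at least 1.12-fold lower, a bound that makes no allowance for spot error. On the log2 scale the bound was -0.16 here, -0.03 after quantile normalization, and 0 after normexp and in the authors' values. A lower S100a9 value is thus not assured. With no such bound its difference was -1.22 ± 0.70.

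In the authors' deposited table of log2 values, S100a8 stood at 5.11 on the SIRPα-KO-labelled array and 6.35 on the WT array, and S100a9 at 2.34 and 3.28, the first of which is the lowest value of that column and shared by 9305 probes. The S100a8 difference was -0.52, short of the 2-fold rule, after normexp background correction. That correction adds an offset of 50, which exceeds the S100a8 signal on the SIRPα-KO-labelled array. When the measured genes were split by brightness into 5 groups of about 3166, S100a8 fell in group 3 counted from the dimmest, where 2.97% were called lower. In the brightest group, which holds Elane and Prtn3, 14.8% were, and the median difference was -0.28.

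**Figure D2:**
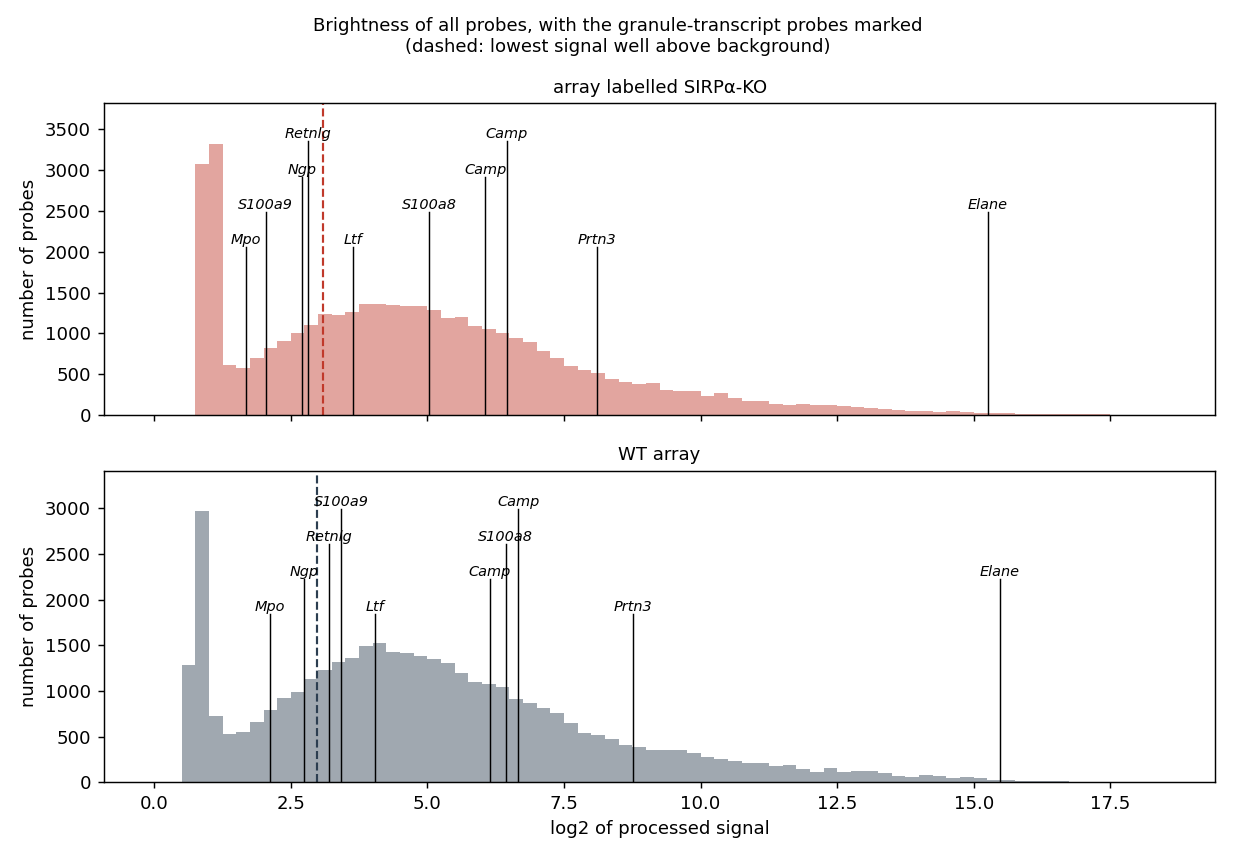
Number of probes by log2 of processed signal on the SIRPα-KO-labelled array (upper panel) and the WT array (lower panel), with the 10 probes of the granule transcripts marked by vertical lines and the lowest signal well above background dashed. The S100a8 line lies left of both Camp lines on the SIRPα-KO-labelled array and between them on the WT array, and Elane stands alone at the bright end of both.

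S100a8 and S100a9 lie side by side on chromosome 3, and the 250 bases before their annotated starts are shown because S100a8 carries the call and S100a9 encodes its partner. Sequences, build and capitals are as above.
S100a8, chr3:90668821-90669070, plus strand: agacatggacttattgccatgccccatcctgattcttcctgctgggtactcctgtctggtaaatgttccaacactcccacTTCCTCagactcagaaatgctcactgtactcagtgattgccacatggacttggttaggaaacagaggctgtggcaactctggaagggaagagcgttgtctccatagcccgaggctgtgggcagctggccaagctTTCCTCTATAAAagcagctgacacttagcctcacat
S100a9, chr3:90695722-90695971, minus strand: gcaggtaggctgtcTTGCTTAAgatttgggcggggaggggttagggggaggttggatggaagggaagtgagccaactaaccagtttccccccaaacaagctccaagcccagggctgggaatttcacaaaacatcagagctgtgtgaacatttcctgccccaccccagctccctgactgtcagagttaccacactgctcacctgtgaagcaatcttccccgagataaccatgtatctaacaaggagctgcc

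S100a8 held GAGGAA on the opposite strand at -170 and -36 and TATAAA at -30. S100a9 held TTGCTTAA, a match to the C/EBP motif, at -236 and none of the other 3 motifs.

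Retnlg encodes resistin-like molecule gamma, a small secreted protein of the resistin family made by neutrophils. Its signal was 7.06 ± 1.98 on the SIRPα-KO-labelled array, not well above background, and 9.13 ± 1.84 on the WT array, just above the lowest such signal. No fold is given, because the lowest signal well above background on the SIRPα-KO-labelled array exceeded the WT value after scaling. The resistin family members Retn and Retnla differed by 0.61 ± 0.20 and 0.57 ± 0.20, with signals of 435 and 602 on the SIRPα-KO-labelled array against 321 and 455 on the WT array. Retn had a further probe that was not well above background on either array.

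Ly6c1, the closest relative of Ly6c2, had 2 probes whose differences had opposite signs. Its brighter probe had a signal of 333 on the SIRPα-KO-labelled array and 239 on the WT array, a difference of 0.65 ± 0.20. Its further probe had 90.3 and 144, a difference of -0.51 ± 0.21. The coding sequences of Ly6c1 and Ly6c2 are nearly identical, so either probe could also read Ly6c2, and the values are uncertain for both genes.

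**Figure D3:**
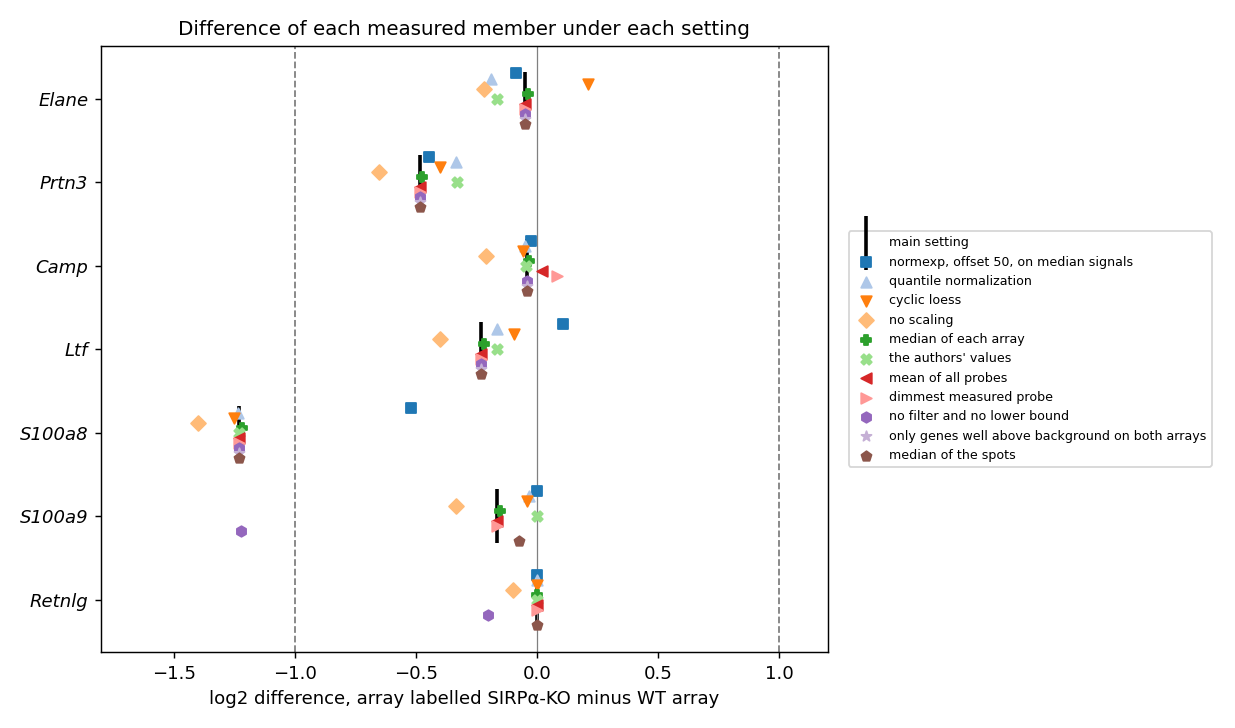
Log2 difference, SIRPα-KO-labelled array minus WT array, of the 7 measured genes under the main setting (black bar) and each alternative (coloured symbols), with dashed lines at the 2-fold limits. S100a8 is past the lower limit in every setting shown but normexp, and S100a9 only where no lower bound is set. Prtn3 stays between -0.65 and -0.33, and the symbols of Elane, Camp and Ltf fall on both sides of 0.

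Wider lists of granulocyte, monocyte and related genes gave 0 higher calls, against 3.13% of all measured genes. Lower calls made up 3 of 10 measured neutrophil surface receptors and 4 of 12 measured S100 genes, and 0 or 1 gene in each other list. The share over all measured genes was 5.52%, but it rose from 1.99% in the dimmest of the 5 brightness groups to 14.8% in the brightest. The lists were not matched for brightness, so these shares are no result about the lists. In the primary granule list 9 of 11 genes were measured and 0 were called, with a median of -0.27, which is the bound of Lyz2. Ctsg, the cathepsin G gene, had signals of 176 on the SIRPα-KO-labelled array and 225 on the WT array, a difference of -0.18 ± 0.20. In the secondary granule list 10 of 13 were measured and 1 was called lower, with a median of 0.02. That gene was Orm1, an acute-phase plasma protein, 2.46-fold lower with signals of 10.9 and 30.1. Lcn2, which encodes the iron-chelator-binding protein lipocalin 2, differed by 0.25 ± 0.20. In the tertiary granule list 7 of 8 were measured and 0 were called, with a median of -0.05. Mmp9, the gelatinase of these granules, was read from 10 spots on the SIRPα-KO-labelled array and 9 on the WT array and differed by 0.10 ± 0.38.

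Among the cytosolic neutrophil proteins 14 of 15 genes were measured, S100a8 alone was called lower, and the median was -0.14. Neutrophil surface receptors had the lowest median of the granulocyte and monocyte lists, -0.44 over 10 measured of 12 genes, with 3 called lower. Clec4d, a C-type lectin receptor, had a signal of 119 on the SIRPα-KO-labelled array and 806 on the WT array and was 6.05-fold lower. The interleukin-8 receptor gene Cxcr1 was 2.27-fold lower, and Clec4e, which encodes the receptor Mincle of macrophages and neutrophils, was 2.20-fold lower. Csf3r, the receptor for granulocyte colony-stimulating factor, differed by 0.53 ± 0.20, with signals of 24661 and 19218. Each of these 4 genes had 1 probe.

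Of the monocyte markers, 13 of 16 were measured, with a median of -0.30. Ccr2, the chemokine receptor that defines inflammatory monocytes, was not well above background on either array, with 2.03 and 2.31. The transcription factors of granulocytes and monocytes had a median of 0.16 with 0 called of 10 measured. Cebpe, needed for secondary granule genes, was at least 1.89-fold higher, with signals of 13.3 on the SIRPα-KO-labelled array and 7.44, not well above background, on the WT array.

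Proteins that activate, package or inhibit granule proteases had a median of -0.01 with 0 called of 8 measured genes. Receptors of the granule and cytosolic proteins had a median of -0.31, with Cd36, a scavenger receptor, called lower of 9 measured (3.19-fold). In the S100 family 4 of 12 measured genes were called lower, with a median of -0.21. Beside S100a8 these were S100a1 (5.06-fold), S100g (3.94-fold) and S100a5 (2.44-fold), calcium-binding proteins best known outside blood cells. S100a5 lies near S100a8 on chromosome 3. A further S100a1 probe differed by -0.27 and a further S100g probe by -2.48. The Ly6 family had a median of -0.34 and the resistin family 0.57, with 0 called of 8 and of 3 measured genes.

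**Figure D4:**
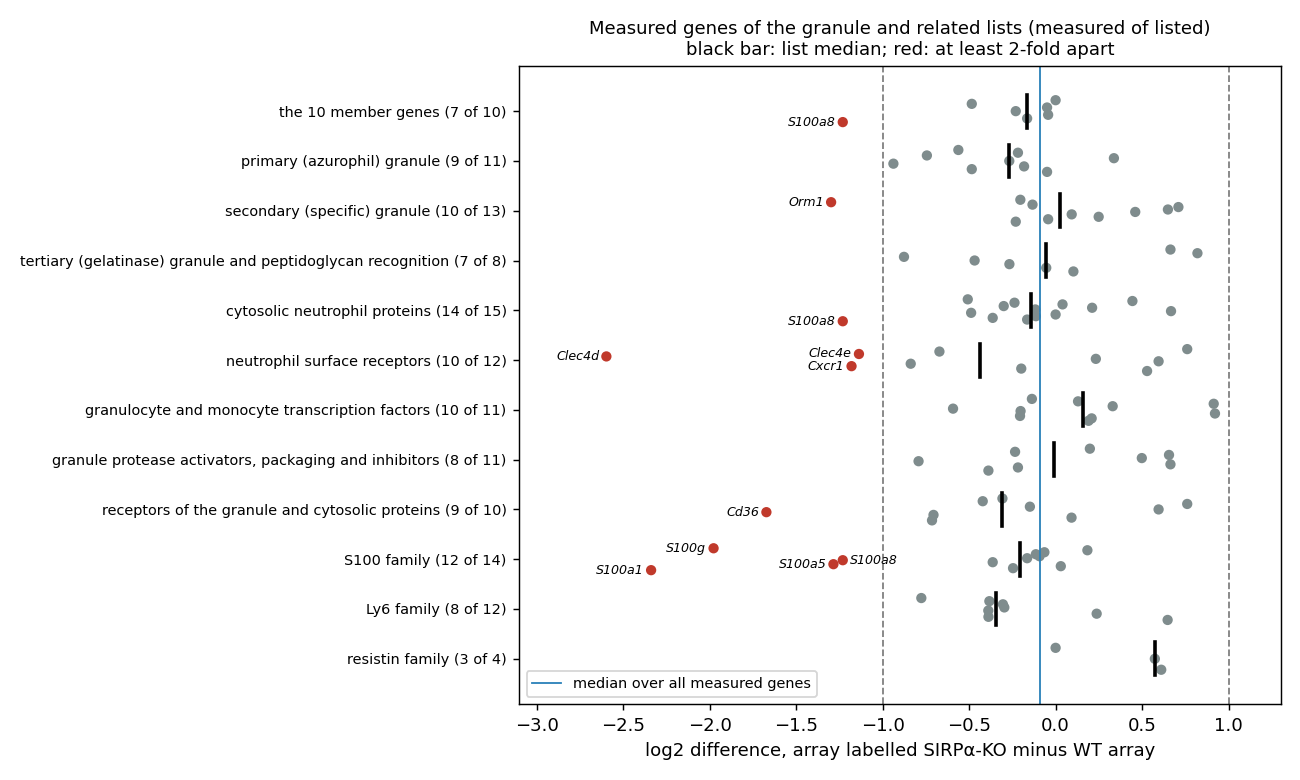
Log2 difference, SIRPα-KO-labelled array minus WT array, of each measured gene (points) in the granule transcripts and the related lists other than the monocyte markers, with the number measured of the number listed. Black bars are list medians, the blue line is the median over all measured genes, dashed lines are the 2-fold limits and red points lie past them. All red points lie on the lower side, and the list medians run from -0.44 for neutrophil surface receptors to 0.57 for the resistin family.

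Markers of other cells were read on the same arrays. Summed over the 11 neutrophil surface receptor genes with a probe, the signal was 46415 on the SIRPα-KO-labelled array, with 10 genes well above background, and 37397 on the WT array, with 9. Csf3r and Itgam alone carried 88.9% and 80.9% of these sums, and the other 9 genes summed to 5136 and 7152. Summed over 15 monocyte markers it was 32185 and 48915, with 13 well above background on each. The 2 brightest, Ms4a4c and Vcan, carried 74.99% and 70.22%, and the other 13 summed to 8051 and 14566. Single probes ranged from 2.26 to 24661 and from 1.89 to 19218 in the first list and from 2.03 to 14668 and from 2.31 to 22195 in the second. No marker read 0, but Ccr2, Spn and Il1r2 were at background on both arrays, and no probe matched Ly6g. T cell markers summed to 16677 on the SIRPα-KO-labelled array and 36529 on the WT array. B cell markers summed to 1098 and 2446, conventional dendritic cell markers to 719 and 1509, and red pulp macrophage identity genes to 18890 and 15740. A lower sum was thus not particular to the monocyte markers. All these sums are unscaled and add probes of unlike affinity. Eosinophil, basophil and mast cell granule genes had a median of -0.03 over 11 measured, and cytotoxic granule genes -0.18 over 8, with 0 called in either. The part of these cells in the S100a8 difference was not tested.

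The label of red pulp macrophages was checked on 18 identity genes, of which 15 were measured. Adgre1, which encodes F4/80, had a signal of 10406 on the SIRPα-KO-labelled array and 6830 on the WT array at its brighter probe, a difference of 0.78 ± 0.20. Its further probe had 474 and 737, a difference of -0.47 ± 0.20, so the probes of this sort gene had opposite signs. Spic, the transcription factor of these cells, had 53.6 on both. Mertk, Itgad and Fcna were not well above background on either array. Itgam, which encodes CD11b of the sort gate, had signals of 16619 and 11027 at its brightest probe, a difference of 0.76 ± 0.20, and its further probes differed by -0.01 and 0.13. Lyz2, the lysozyme gene of macrophages, monocytes and neutrophils, had 4.75, not well above background, on the SIRPα-KO-labelled array and 11.5 on the WT array, while Lyz1 had 10655 and 9484. In the identity list Cd5l and C1qc were called higher (2.74-fold and 2.16-fold) and Hpgd lower (2.14-fold). The list median was -0.15, with 6 genes above 0 and 9 below. The other C1q genes of the list were on the lower side, C1qa at least 1.66-fold and C1qb by -0.34 ± 0.21. A further Hpgd probe, not well above background on the SIRPα-KO-labelled array, differed by -0.20. Of the lists for lymphoid, dendritic and platelet cells, Cr2 (4.21-fold), Cd8b1 (2.41-fold) and Flt3 (2.10-fold) were called lower and Gp1ba higher (2.72-fold). The call of Cr2 rests on its brighter probe, and the further one differed by 0.31.

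Over all measured genes 495 were called higher and 874 lower, so 36.2% of calls were higher. That share was 46.9% after quantile normalization and 47.0% in the values of the authors' deposited table. It was 20.5% with no scaling and 15.2% with normexp.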

How the data were processed

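Sorted spleen macrophages were measured on 1 Agilent array for SIRPα-KO mice and 1 for WT mice, each from a pool of 5 mice. Per the file headers, the authors' scanner tables give each spot's intensity (linear) from Agilent Feature Extraction 11.0.1.1, for design 26655, and name build mm9. A deposited table gives the authors' processed values, taken as log2: over probes well above background their slope on log2 signal was 1.01 on the SIRPα-KO-labelled array and 0.99 on the WT array. The columns share their median (4.56) and highest value (18.1), are not centred per gene, and how they were scaled is unknown. They gave 653 genes higher and 735 lower, close to the 655 and 743 under quantile normalization. The arrays had 43020 non-control spots each, of which 167 on the SIRPα-KO-labelled array and 190 on the WT array were outlier flags and left out; none was saturated.

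Log2 of the processed signal was scaled to the 75th percentile of each array (a signal of 89.1 and 100.2). Accessions were matched to RefSeq genes of GRCm38.p6 for names. A gene was read from its probe with the highest mean signal, and a dim side was raised to the array's lowest value well above background where it lay beneath it, so such folds are written "at least". A difference whose sign this turned was set to 0. These bounds make no allowance for spot error, and they enter the medians. Members, lists and the naming rule (all members with every probe, the sort genes, Sirpa, close relatives of members and up to 3 genes each way per list at least 2-fold apart) were chosen with earlier results of these data known. Neighbouring genes, the count of bright probes and the background-level markers named were added after values were seen. So were Lyz1, Lyz2, Spi1, C1qa, C1qb, Csf1r, Ctsc, Ms4a4c, Vcan, Cebpe, Slpi and Stfa3. Normexp, quantile and cyclic loess used limma 3.58.1. The steps were tested on simulated data made from WT signals of probes well above background, with noise the size of the spot error. These data held no probes near background and no shift between arrays that depends on brightness. The test therefore does not show how the steps handle either. Some genes of the wider lists are not reported here.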

Additional observations from a re-analysis of the deposited data

How the results depend on the processing

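No paired analysis was possible because each genotype has 1 array, and no replicate could be left out for the same reason. The count of 1 member at least 2-fold lower was 0 after normexp and 0 at a 3-fold limit, and it was 2 with no filter on dim probes, when S100a9 joined S100a8 at -1.22; it was 1 in the other settings, and 0 members were higher in every setting. Over all genes, the count higher (495) was 104 with normexp, 307 unscaled, 885 unfiltered, 1809 under a 1.5-fold and 105 under a 3-fold limit. Counts lower (874) were 581 with normexp, 1653 unfiltered, 2143 under a 1.5-fold and 377 under a 3-fold limit. Fold limits, the filter and the lack of scaling change these counts by construction; for normexp the cause was not tested. Normexp was run on median signals, since the tables hold no mean signal, a choice made after seeing the data. Single differences moved by more than their spot error in 3 cases: S100a8 after normexp (-0.52), Elane after cyclic loess (0.21) and S100a9 with no filter. Leaving out scaling moved the all-gene median to -0.26, against -0.09, so the S100a8 difference of -1.40 in that setting includes that shift. The median over the measured members ranged from -0.33 without scaling to -0.02 after normexp. Signals close to background limit Mpo, Ngp, S100a9, Retnlg and Ltf, whose spot errors run from 0.37 to 1.01 on the log2 scale.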

Other observations

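Several further genes near a member on the genome were bright or differed between the arrays; they were picked after their values were seen and are given as values only, each from its brightest probe. Lpo, the lactoperoxidase gene next to Mpo, had a signal of 13890 on the SIRPα-KO-labelled array and 14639 on the WT array, a difference of 0.09, while Mpo itself was at background. Epx, the eosinophil peroxidase gene of the same cluster, had 1.84 and 5.18 and was not well above background on either array. Dhx30, an RNA helicase gene near Camp, differed by -1.73 (348 and 1294), and Tdgf1, a gene near Ltf, by 1.22 (1429 and 691). Stfa3, a stefin of neutrophils, had 3079 and 3367, a difference of 0.04, and the antileukoproteinase gene Slpi, whose product inhibits elastase, had 12681 and 8999, a difference of 0.66 ± 0.20.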
